A study of Mus musculus with 6 samples.

Results

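The genes described here mostly encode enzymes that write or erase methyl groups on histones and subunits of complexes that move nucleosomes. They were chosen by symbol: every protein-coding gene named in any of the 6 deposited peak lists whose symbol starts with Kdm, Kmt, Setd, Smarc, Arid or Ino80, with Kdm1a left out. That gave 52 of the 9700 protein-coding genes named in any list, and 49 of the 52 had a called interval at the promoter in at least 1 library, against 8097 of the 9700. A gene had to be in a list to be chosen, so the share of these genes with an interval is raised by the choice, in the same way as for the 9700 genes it is read against. The mark profiled was acetylation of lysine 9 of histone H3 (H3K9ac), by chromatin immunoprecipitation and sequencing on epithelial cells of the intestine (distal part) of C57BL/6 mice. There were 3 groups of 2 libraries: germ-free mice, which carry no microbes, mice monoassociated with E. coli, which carry that bacterium alone, and conventionally housed mice with a complex microbiota. The sources used here do not give the age or sex of the mice or the strain of E. coli. Nor do the labels say whether the libraries of a group came from different animals, so their spread may be technical.

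The libraries differed widely in how much was called. The lists held 4430 and 17094 intervals for germ-free replicates 1 and 2, 1988 and 870 for the E. coli-monoassociated replicates, and 3117 and 15352 for the conventional replicates, on a stated depth of 20 M reads each. The background pileup, the mean coverage by extended reads that each list's fold enrichments were taken against, was computed from the pileup and fold columns as 0.733 in germ-free replicate 1, 0.690 and 0.403 in the E. coli libraries and 0.413 and 0.381 in the conventional ones. The list of germ-free replicate 2 holds no pileup, and the steps between its fold values give an estimate of 0.579. The lowest fold in a list lay between 3.62 and 4.28, and a promoter with weaker enrichment is not listed. Fold values are the authors' own and are used here only to describe and rank intervals within a list. In these bulk samples, fewer cells carrying the mark and less of it per cell cannot be told apart. The lists matched the labelled cell type: of 12 epithelial marker genes 11, 12, 9, 7, 11 and 12 had a promoter interval in the 6 libraries, in the order above, whereas none of 13 lymphocyte and myeloid markers (Ptprc and Cd3e among them) and none of 12 markers of stroma, endothelium, muscle and nerve had one in any library.

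Histone methylation works by address: trimethylation of lysine 4 of histone H3 (H3K4) marks active promoters and its monomethylation marks enhancers, methylation of lysine 36 follows transcribed gene bodies, and methylation of lysines 9 and 27 accompanies silencing. SET-domain methyltransferases (most of the Kmt and Setd genes) place these groups, and demethylases with a JmjC or an amine oxidase domain (the Kdm genes) remove them. The BAF and PBAF complexes (Smarc and Arid subunits), the ISWI ATPases and the INO80 complex use ATP to slide, evict or exchange nucleosomes. In the intestinal epithelium such enzymes are known to take part in keeping stem cells and in the switch to differentiated enterocytes. H3K9ac itself is placed by acetyltransferases at the starts of active genes, so an interval at the promoter of one of these genes reports on the gene that encodes the enzyme and not on the enzyme's activity.

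Called H3K9ac at these promoters was widespread in the long lists and rare in the E. coli lists. A promoter interval, meaning an interval that the authors tied to the gene and that overlaps 1 kb on either side of the start site, was called for 23 of the 52 genes in germ-free replicate 1 and for 45 in germ-free replicate 2. The E. coli libraries had 6 and 7 and the conventional libraries 18 and 45. In percent these were 44.2 (95% Wilson interval 31.6 to 57.7) and 86.5 (74.7 to 93.3), 11.5 (5.40 to 23.0) and 13.5 (6.68 to 25.3), and 34.6 (23.2 to 48.2) and 86.5 (74.7 to 93.3), where the intervals cover counting error only. Over all 9700 genes the shares called were 24.8% and 66.9%, 9.49% and 4.22%, and 20.5% and 74.2%. The chromatin genes were thus above the share of all genes in all 6 libraries, by a ratio of 1.78 and 1.29, 1.22 and 3.19, and 1.69 and 1.17. In E. coli replicate 1 the share of all genes (9.49%) lay inside the Wilson interval. In conventional replicate 2 (74.2%) it lay just below the interval, so in these libraries the chromatin genes were near the background.

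**Figure D1:**
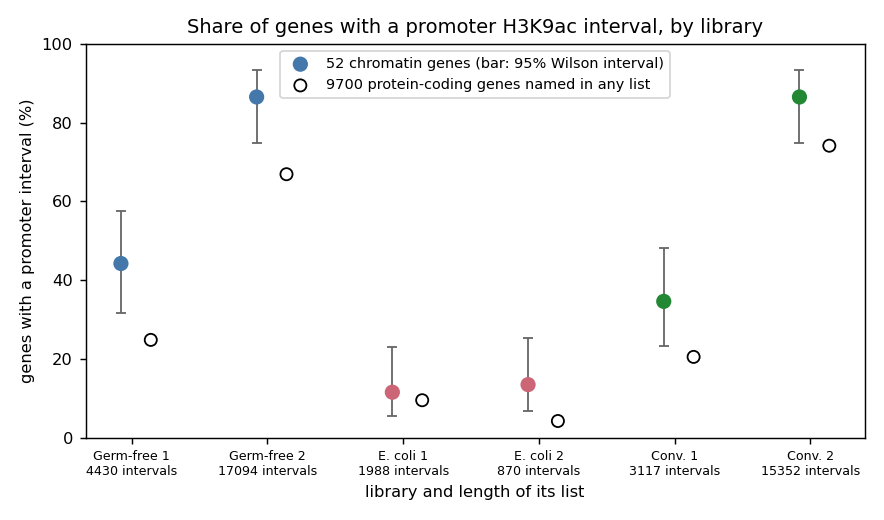
Percent of genes with a promoter H3K9ac interval (vertical axis) in each of the 6 libraries (horizontal axis, with the number of intervals in its list). Filled points are the 52 chromatin genes with a 95% Wilson interval, open circles all 9700 protein-coding genes named in any list. The E. coli libraries sit at 11.5 and 13.5%, below all other libraries, and in each library the filled point is above the open circle.

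Compared between groups, the mean share of the 52 genes with a promoter interval was 65.4% ± 29.9 (SD, n = 2) for the germ-free group, 12.5% ± 1.36 (n = 2) for the group with E. coli and 60.6% ± 36.7 (n = 2) for the conventional group. The E. coli mean minus the germ-free mean was -52.9 percentage points (two-sided exact permutation p = 0.333), and the conventional mean was 48.1 points above the E. coli mean (exact permutation p = 0.333). Neither E. coli library overlapped the libraries of the other groups, and 0.333 is the smallest p that 2 against 2 libraries allow. Conventional and germ-free libraries differed by -4.81 points, less than the spread within either group (exact permutation p = 1). These differences moved with the length of the lists. With each list held to 868 of its most significant intervals, the libraries had 3 and 6, 5 and 7, and 5 and 13 of the 52 genes. Of all 9700 genes, 517 and 645, 393 and 409, and 557 and 718 had a promoter interval in these equal lists. The difference between E. coli and germ-free became 2.88 points and the excess of conventional over E. coli fell to 5.77 points (exact permutation p = 0.667 and 1). Intervals of equal p-value at that cut were kept or dropped by chromosome order, so these counts and the sign of the 2.88 points may depend on it. In germ-free replicate 1, Kmt2d (rank 725) was kept and Kdm5c (rank 925) dropped at the same -log10 p-value of 10.6. Equal lists with all ties kept were not tested. As a ratio to the share of all genes, E. coli replicate 1 (1.22) lay below both germ-free libraries (1.78 and 1.29) and E. coli replicate 2 (3.19) above both. The mean ratio was 0.666 higher with E. coli, which rests on replicate 2, the shortest list, with 409 of all genes called. The part of list length in the group difference was not tested further. The conventional minus germ-free difference changed sign without germ-free replicate 2 (16.3 points) and without conventional replicate 1 (21.2 points). The difference between E. coli and germ-free was -31.7 points without germ-free replicate 2, and the excess of conventional over E. coli was 22.1 points without conventional replicate 2 and 74.0 without conventional replicate 1.

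The genes called in all 6 libraries were 5: Kmt2d, Kmt2e, Kdm2a, Arid1a and Ino80d, or 9.62% of the 52, where 2.25% of all genes were. They belong to different machines. Kmt2d encodes the methyltransferase that monomethylates H3K4 at enhancers. Kmt2e encodes a relative of it with a PHD finger that reads methylated H3K4. Kdm2a encodes a demethylase of lysine 36 that binds unmethylated CpG. Arid1a encodes the large DNA-binding subunit of the BAF complex, and Ino80d an accessory subunit of INO80. For all 5, the promoter intervals of the 6 libraries lay over at least 1 common base. With each list held to 868 intervals, Ino80d and Kmt2e alone were still called in all 6.

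Ino80d, on chromosome 1 with its start site at 63114267 on the minus strand (mm10), had the highest mean rank of the 52 genes. Its strongest promoter interval had a fold enrichment of 13.9 and 18.4 in germ-free mice, 14.8 and 13.5 in mice with E. coli and 12.7 and 31.1 in conventional mice. These ranked at percentiles 97.9 and 99.6, 95.3 and 91.4, and 97.1 and 99.9 of their lists, where 100 is the most significant interval. The gene was near the top in all 6, the short lists included. Its promoter intervals are listed together with Gm11602, a neighbouring transcript, and together measured 1609 and 2483 bp, 1217 and 876 bp, and 1597 and 2066 bp.

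Kmt2e, on chromosome 5 with its start site at 23434429 on the plus strand, followed. Its strongest promoter interval had folds of 11 and 15.8, 10.1 and 8.55, and 12 and 20.3, at percentiles 96.7 and 99.3, 92.7 and 83.2, and 96.7 and 99.6. The promoter lies head to head with the transcript 5031425E22Rik, so the mark cannot be assigned to either of them, and intervals were called on both sides of the start site in all 6 libraries. In germ-free replicate 2 a single interval ran from 23431964 to 23436155, and the summed promoter length of 4192 bp was the longest of any of the 52 genes in any library.

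Kmt2d, on chromosome 15 with its start site at 98871205 on the minus strand, had folds of 6.93 and 8.87, 8.29 and 8.55, and 7.78 and 14.5, at percentiles 82.8 and 92.5, 88.3 and 83.2, and 87.3 and 98.8. The summit of its strongest interval lay upstream of the start site in all 5 lists that give summits, at -464 bp in germ-free replicate 1, -785 and -533 bp with E. coli, and -663 and -610 bp in conventional mice. Over all genes with a promoter interval of their own, 85.3 to 89.3% of summits lay downstream. The E. coli intervals, 98871515 to 98872049 and 98871636 to 98872000, held only that upstream block, while in both germ-free lists and in conventional replicate 2 an interval ran across the start site.

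Kdm2a and Arid1a were the weaker of the 5 in most lists. Kdm2a, on chromosome 19 with its start site at 4397077 on the minus strand, had folds of 6.35 and 9.50, 7.10 and 4.28, and 6.37 and 15.9. In E. coli replicate 2 its percentile was 5.53, at the edge of that list, and the interval measured 225 bp. In E. coli replicate 1 its percentile was 81.0. Its summits lay 226 to 453 bp downstream of the start site in the 5 lists with summits. Arid1a, on chromosome 4 with its start site at 133753611 on the minus strand, had folds of 5.77 and 7.60, 5.92 and 5.70, and 5.66 and 16.7, at percentiles 58.3 and 86.4, 60.4 and 43.6, and 46.4 and 99.3. In 4 of the 6 lists it thus ranked near the middle, and in conventional replicate 2 near the top.

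**Figure D2:**
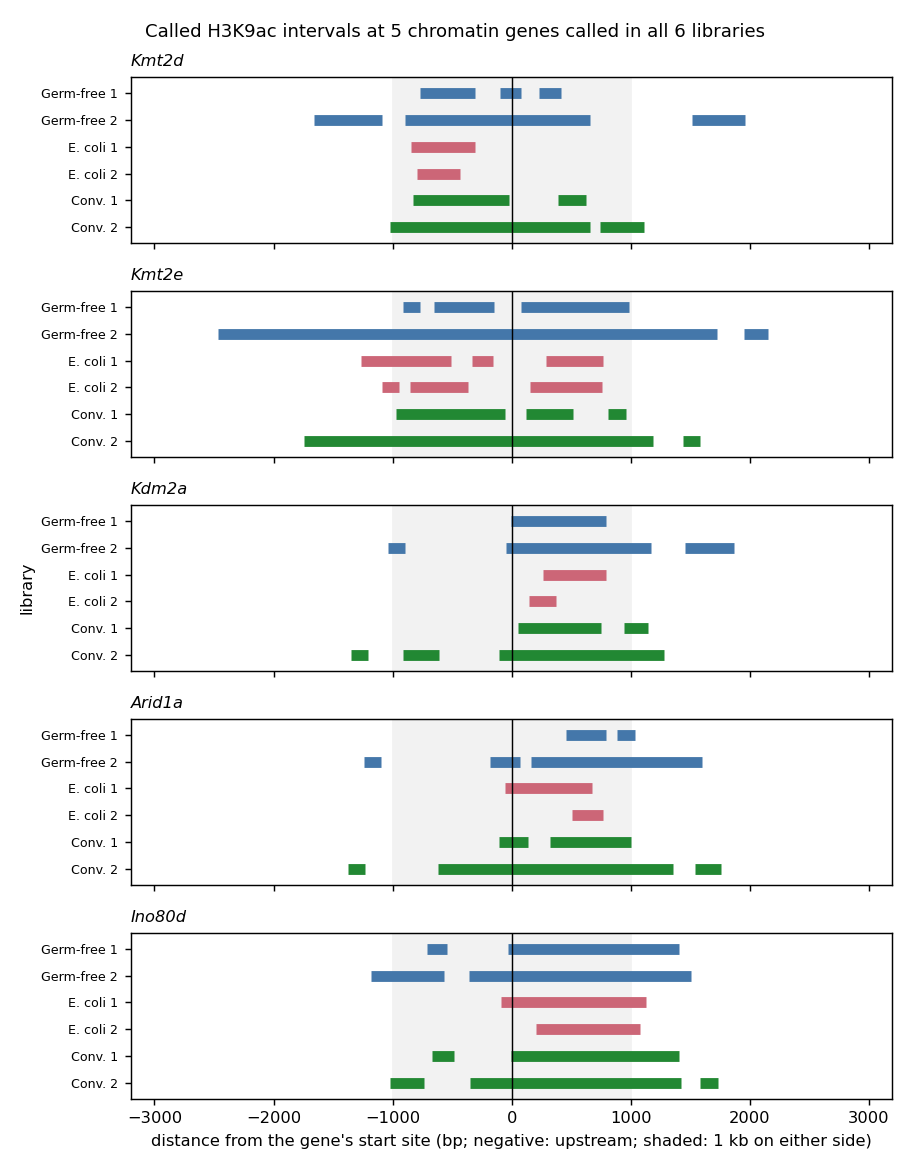
Called H3K9ac intervals (bars) at the 5 chromatin genes with a promoter interval in all 6 libraries, by distance from the start site in bp (horizontal axis, negative is upstream). Rows are libraries, and the shaded band is 1 kb on either side. At Kmt2d both E. coli intervals lie wholly upstream of the start site, whereas at Kdm2a and Ino80d the bars lie mainly downstream.

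RefSeq promoter sequences (GRCm38.p6, 250 bases before to 50 after the start) were matched for 33 of the 49 genes with a promoter interval. They were GC-rich: the median GC content was 65.7%, against 56.3% over all 21263 promoters and 62.3% over the 6521 promoters matched in the same way to any gene with an interval. The median number of CpG dinucleotides was 28, against 13 and 23. The GC box GGGCGG, searched on both strands with overlapping matches counted, was in 24 of the 33 (72.7%), in 46.2% of all promoters and in 69.5% of those with an interval. The CCAAT box was in 9 (27.3%, against 38.2% and 37.2%), the ETS core CCGGAAG in 6 (18.2%, against 11.6% and 23.1%) and TATAAA in 2 (6.06%, against 12.6% and 6.15%), namely Arid5b and Kdm5d. Neither the NRF1 palindrome (1.33% and 2.58%) nor the cyclic AMP response element TGACGTCA (2.23% and 3.60%) was found in any of the 33. Such matches describe letters and are not binding sites.

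The promoters printed here were taken in a fixed order: first those of genes called in all 6 libraries that had a sequence, Kmt2d and Arid1a, then those of the highest mean percentile among genes with a sequence, Kdm5c, Setd3, Smarcad1 and Ino80. Their GC content ran from 79.7% in Arid1a to 47.0% in Kdm5c, within the wider range of the 33 matched promoters, from 36.7% in Kdm5d to 88.0% in Kmt2c. Capitals mark the GC box on either strand (GGGCGG or CCGCCC) and the CCAAT box (CCAAT or ATTGG). All are 300 bases of GRCm38.p6, 5′ to 3′ on the gene's strand, at chr15:98871156-98871455 (minus), chr4:133753936-133754235 (minus), chrX:152232977-152233276 (plus), chr12:108179235-108179534 (minus), chr6:65042341-65042640 (plus) and chr2:119477638-119477937 (minus).
Kmt2d: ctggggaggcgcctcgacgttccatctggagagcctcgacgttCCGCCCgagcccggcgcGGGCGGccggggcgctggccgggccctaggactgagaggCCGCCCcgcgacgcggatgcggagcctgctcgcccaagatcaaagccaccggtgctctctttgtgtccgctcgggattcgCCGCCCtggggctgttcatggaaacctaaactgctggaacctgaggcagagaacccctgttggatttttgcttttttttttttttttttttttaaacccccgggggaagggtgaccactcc
Arid1a: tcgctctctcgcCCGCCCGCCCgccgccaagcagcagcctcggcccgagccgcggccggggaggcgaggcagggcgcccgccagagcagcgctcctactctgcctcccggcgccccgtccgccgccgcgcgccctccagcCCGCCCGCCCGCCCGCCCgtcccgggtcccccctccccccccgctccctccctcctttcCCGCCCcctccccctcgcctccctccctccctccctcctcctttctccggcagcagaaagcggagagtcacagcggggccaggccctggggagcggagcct
Kdm5c: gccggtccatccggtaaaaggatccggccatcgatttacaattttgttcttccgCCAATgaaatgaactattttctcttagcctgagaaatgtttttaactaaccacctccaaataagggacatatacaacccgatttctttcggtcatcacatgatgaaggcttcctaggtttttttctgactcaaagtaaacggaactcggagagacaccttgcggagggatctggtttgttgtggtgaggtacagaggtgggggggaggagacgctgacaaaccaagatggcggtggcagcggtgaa
Setd3: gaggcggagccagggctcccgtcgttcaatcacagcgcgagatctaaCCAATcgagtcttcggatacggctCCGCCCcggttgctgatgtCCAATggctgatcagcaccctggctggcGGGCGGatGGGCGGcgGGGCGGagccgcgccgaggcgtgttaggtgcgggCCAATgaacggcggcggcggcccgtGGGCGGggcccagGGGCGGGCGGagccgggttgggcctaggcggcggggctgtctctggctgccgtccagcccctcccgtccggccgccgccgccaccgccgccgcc
Smarcad1: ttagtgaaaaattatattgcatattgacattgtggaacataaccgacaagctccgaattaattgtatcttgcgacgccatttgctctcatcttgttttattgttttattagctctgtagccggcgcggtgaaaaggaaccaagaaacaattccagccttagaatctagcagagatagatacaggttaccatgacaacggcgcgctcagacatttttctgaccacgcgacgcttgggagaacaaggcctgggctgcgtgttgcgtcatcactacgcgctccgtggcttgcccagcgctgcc
Ino80: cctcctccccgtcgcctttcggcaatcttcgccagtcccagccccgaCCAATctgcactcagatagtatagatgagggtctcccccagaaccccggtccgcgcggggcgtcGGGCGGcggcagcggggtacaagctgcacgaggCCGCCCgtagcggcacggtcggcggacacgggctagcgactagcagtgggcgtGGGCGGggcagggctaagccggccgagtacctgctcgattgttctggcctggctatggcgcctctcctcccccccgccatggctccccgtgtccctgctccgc

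Kmt2d held 4 GC boxes and Arid1a 7, whereas Kdm5c held a single CCAAT box and no GC box, and Smarcad1 held none of the motifs searched. Setd3 held 7 GC boxes and 3 CCAAT boxes, and Ino80 held 3 and 1. The called intervals covered these windows unevenly. Of the 300 bases of Kmt2d, 147 and 300 lay in an interval in germ-free mice, 0 and 0 in mice with E. coli and 229 and 300 in conventional mice. At Ino80 the covered bases were 34 and 28 in the germ-free lists, 245 in conventional replicate 2 and 0 in the other 3. At Arid1a, whose RefSeq start lies 374 bp from the start site in the lists, 297 bases were covered in conventional replicate 2 and 0 in the other 5. The Setd3 window was covered in no library, since its promoter intervals lay outside it, although within 1 kb.

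Of the 7 H3K4 methyltransferase genes, 4 and 7 had a promoter interval in germ-free mice, 2 and 1 in mice with E. coli and 2 and 7 in conventional mice. The shares of all genes called in these libraries were 24.8% and 66.9%, 9.49% and 4.22%, and 20.5% and 74.2%, and with so few genes in a class nothing is read from a class count against them, here or in the classes that follow. Kmt2a, the founding mixed-lineage leukaemia gene, had folds of 5.77 and 6.33 in the germ-free lists and 5.07 in conventional replicate 2. Kmt2c, the close relative of Kmt2d, had 5.19, 6.97 and 6.52 in the same 3 lists, the last pair of them in intervals listed together with 4831440E17Rik. Setd1a, the catalytic subunit of a complex that trimethylates H3K4, had 6.35, 4.43 and 7.97 there. All 3 were thus in both germ-free libraries and neither E. coli library. Kmt2b, another promoter methyltransferase, was the gene that E. coli replicate 1 had beyond the 5 common ones: its fold there was 4.14, at the floor of that list, and 5.07 in germ-free replicate 2, with 7.97 in conventional replicate 2. Setd1b, the partner of Setd1a, had 6.97 in germ-free replicate 2 and 4.25 and 11.6 in the conventional lists. The 11.6-fold interval was 1 of 4 promoter intervals in conventional replicate 2. It ran from -2816 to -987 bp of the start site with its summit at -2200 bp, and so reached only the edge of the promoter window. Setd7, which monomethylates H3K4 and other proteins, was called in germ-free replicate 2 and conventional replicate 2 alone.

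Of the 5 H3K4 demethylases, 3 and 5 had a promoter interval in the germ-free and 3 and 5 in the conventional libraries. None had one in an E. coli library, where 9.49% and 4.22% of all genes did, so a count of 0 among 5 genes is near the background. Kdm5c, an X-linked eraser of H3K4 trimethylation (chromosome X, start site 152233230, plus strand), had folds of 6.93 and 12 in germ-free mice and 6.37 and 6.52 in conventional mice. Kdm5b, its autosomal relative on chromosome 1 (start site 134560178, plus strand), had 6.35 and 5.70, and 5.66 and 13. Both were present in all 4 libraries, with intervals over a common base, and in neither E. coli library. Kdm5a had 9.50 in germ-free replicate 2 and 4.95 and 6.52 in the conventional lists, in intervals shared with Ccdc77. Kdm5d, the Y-linked member of the family, had 5.19 and 5.70 in the germ-free lists and 5.79 in conventional replicate 2. The sex of the mice is not given, and its part in calls at X-linked and Y-linked genes was not tested. Kdm1b, an amine oxidase, was in germ-free replicate 2 (3.80, the lowest fold of that list) and conventional replicate 2 (7.24), in an interval shared with Tpmt.

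Of the 8 demethylases of lysines 9 and 36, 1 and 8 had a promoter interval in germ-free mice, 1 and 1 in mice with E. coli and 2 and 6 in conventional mice, and Kdm2a was the gene behind all the single calls. Kdm3b, an eraser of lysine 9 methylation, had 6.33 in germ-free replicate 2 and 6.37 and 10.1 in the conventional lists. Kdm3a, Kdm4a, Kdm4c and Kdm4d were called in germ-free replicate 2 and conventional replicate 2 alone, and Kdm2b and Kdm4b in germ-free replicate 2 alone. Of the lysine 27 demethylases, Kdm6a had folds of 4.62 and 5.07 in the germ-free lists and 7.97 in conventional replicate 2, and its germ-free intervals did not overlap each other. Kdm6b had a promoter interval in germ-free replicate 2 alone (5.70).

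Among the other SET and JmjC genes, Setd5 stood out next to Kmt2e. Setd5, which encodes a SET-domain protein of chromatin (chromosome 6, start site 113077639, plus strand), had folds of 6.35 and 12 in germ-free mice and 7.08 and 15.9 in conventional mice, and none in the E. coli lists. Its mean percentile over those 4 lists was 87.8, and the strongest interval in each is listed together with Gt(ROSA)26Sor, which starts on the other strand. Setd2, the enzyme that trimethylates lysine 36, had 6.97 in germ-free replicate 2 and 5.66 and 9.41 in the conventional lists. Setdb2, a lysine 9 methyltransferase, was in 5 libraries: 4.62 and 5.70 in the germ-free, 6.41 in E. coli replicate 2, and 4.95 and 7.24 in the conventional lists, in intervals shared with Cab39l. Setd3, an actin histidine methyltransferase, was called in germ-free replicate 2 (10.1) and conventional replicate 2 (5.79), with 2 intervals that did not overlap each other and that are both shared with Ccnk. Setdb1, a lysine 9 methyltransferase of euchromatin, was called in conventional replicate 2 alone and Kdm8 in germ-free replicate 2 alone. Setd8, which monomethylates lysine 20 of histone H4 and is Kmt5a in RefSeq, had no promoter interval.

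The BAF and PBAF genes showed the full range of recurrence within single complexes. Of 10 subunit genes, 6 and 8 had a promoter interval in germ-free mice, 1 and 2 in mice with E. coli and 4 and 10 in conventional mice. Arid1a was called in 6 libraries, Smarce1 in 5, and the DNA-binding subunits Arid1b and, in PBAF, Arid2 in 4. Arid1b (chromosome 17, start site 4995074, plus strand) had folds of 5.77 and 5.70 in germ-free mice and 6.37 and 11.6 in conventional mice. Arid2 (chromosome 15, start site 96287522, plus strand) had 6.35 and 9.50, and 4.25 and 13.8. Smarce1, a small subunit with an HMG domain, had 6.35 and 11.4 in the germ-free, 4.99 in E. coli replicate 2, and 5.66 and 15.2 in the conventional lists. The ATPase gene Smarca4 had 6.35 and 5.07 in the germ-free lists and 6.52 in conventional replicate 2, while its alternative Smarca2 was in conventional replicate 2 alone. The core pair split likewise: Smarcc2 was in 3 libraries (4.62, 5.07 and 6.52) and Smarcc1 in conventional replicate 2 alone. Smarcd1 and Smarcd2 were in germ-free replicate 2 and conventional replicate 2.

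Of the INO80 genes, Ino80d was in all 6 libraries, the ATPase gene Ino80 in 4, and Ino80b and Ino80c in germ-free replicate 2 and conventional replicate 2 alone. Ino80 (chromosome 2, start site 119477629, minus strand) had folds of 6.35 and 6.97 in germ-free mice and 6.37 and 6.52 in conventional mice. Smarca5, the ISWI ATPase, had 5.19 and 7.60 in the germ-free lists and 5.79 in conventional replicate 2. Smarcad1, an SNF2-family ATPase, was in germ-free replicate 2 (5.70) and conventional replicate 2 (8.69). Among the ARID genes outside BAF, Arid4b, a partner of the Sin3 deacetylase complex, had 5.19 and 8.24 in germ-free mice and 8.49 and 6.52 in conventional mice, each in an interval shared with Ggps1. Its relative Arid4a had 5.77 and 5.70 in the germ-free lists, in intervals that did not overlap, and 7.24 in conventional replicate 2. Each of these intervals is listed together with 3110056K07Rik. Arid5b was in 2 libraries and the DNA-binding factor Arid3a in conventional replicate 2 alone, and Arid3b and Arid5a had no promoter interval.

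**Figure D3:**
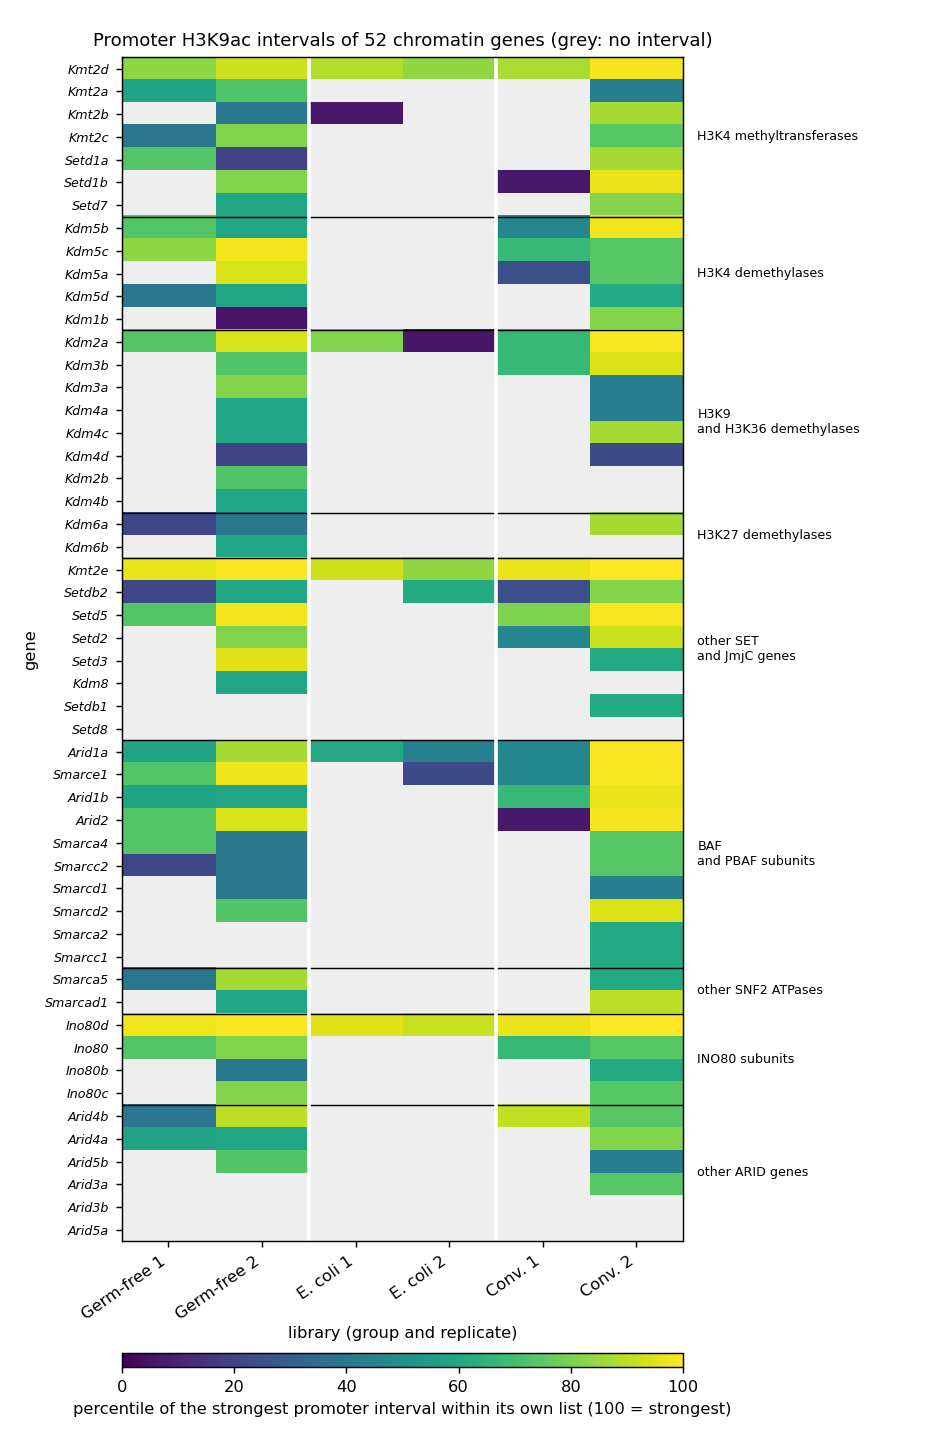
Promoter H3K9ac intervals of the 52 chromatin genes (rows, by role) in the 6 libraries (columns). Colour gives the percentile of the gene's strongest promoter interval within its own list, grey means no interval. Kmt2d, Kmt2e, Kdm2a, Arid1a and Ino80d have colour in all 6 columns, and the E. coli columns are otherwise grey except for Kmt2b in replicate 1 and for Setdb2 and Smarce1 in replicate 2.

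Set against each other as groups, 23 of the 52 genes were called in both germ-free libraries, and 16 of these (69.6%) in neither E. coli library. Over all genes called in both germ-free libraries, 65.6% were in neither E. coli library, so the share among the chromatin genes was near the background. The 16 were Arid1b, Arid2, Arid4a, Arid4b, Ino80, Kdm5b, Kdm5c, Kdm5d, Kdm6a, Kmt2a, Kmt2c, Setd1a, Setd5, Smarca4, Smarca5 and Smarcc2, and in 13 of them the intervals of both germ-free libraries overlapped. Likewise 18 genes were called in both conventional libraries and 11 of these (61.1%, against 61.9% of all genes) in neither E. coli library: Arid1b, Arid2, Arid4b, Ino80, Kdm3b, Kdm5a, Kdm5b, Kdm5c, Setd1b, Setd2 and Setd5. In all 11 the conventional intervals overlapped. Without the shorter list of a group both counts rose to 37 of 45, that is without germ-free replicate 1 (83.9% of all genes) and without conventional replicate 1 (85.2% of all genes). With every list held to 868 intervals, a cut that split tied p-values, the counts were 0 of 2 and 1 of 4. Over all genes the shares were then 33.5% and 36.3%.

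Of the genes in all 4 germ-free and conventional libraries, 7 of 14 were in neither E. coli library, against 48.7% of all genes: Arid1b, Arid2, Arid4b, Ino80, Kdm5b, Kdm5c and Setd5. The reverse pattern was absent: the 5 genes called in both E. coli libraries were in all 4 others, and over all genes 0 of 248 called in both E. coli libraries were in neither germ-free library, and 0 in neither conventional library. Between germ-free and conventional mice no chromatin gene was called in both libraries of one group and neither of the other, with 0 of 23 and 0 of 18, against 2.47% and 3.25% of all genes. No test underlies these counts of 0, which rest on calls in lists of unequal length. Without germ-free replicate 1, 4 of 45 genes were in germ-free lists alone (Kdm2b, Kdm4b, Kdm6b and Kdm8, against 12.7% of all genes), and without conventional replicate 2, 9 of 23 were (45.9%). Without germ-free replicate 2, 4 of 18 were in conventional lists alone (Kdm3b, Kdm5a, Setd1b and Setd2, against 37.6%), and without conventional replicate 1, 4 of 45 were (Arid3a, Setdb1, Smarca2 and Smarcc1, against 19.6%).

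Counted over libraries, 3 of the 52 genes had a promoter interval in none, 8 in 1, 13 in 2, 14 in 3, 7 in 4, 2 in 5 and 5 in 6. Over all 9700 genes the percentages were 16.5, 22.3, 29.9, 16.1, 8.64, 4.37 and 2.25. All 13 genes in 2 libraries had germ-free replicate 2 and conventional replicate 2, the longest lists, and the 8 in a single library had one of those 2. Of the 41 genes in 2 or more libraries, the intervals of all their libraries lay over a common base in 32. The 7 promoter calls of E. coli replicate 2 comprised the 5 common genes, Setdb2 and Smarce1, and the 6 of E. coli replicate 1 the 5 common genes and Kmt2b.

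Within a list, the promoter intervals of the chromatin genes ranked at or above those of all genes. The median percentile of the called chromatin genes was 73.3 and 72.8 in germ-free mice, 84.7 and 61.5 in mice with E. coli and 67.1 and 81.4 in conventional mice, and over all called genes 58.3 and 72.8, 41.5 and 43.6, and 46.4 and 73.9. Only genes that were called enter these medians, so they describe 23, 45, 6, 7, 18 and 45 genes and not all 52. The median summed length of their promoter intervals was 254 and 662 bp, 635.5 and 264 bp, and 513.5 and 863 bp, against 246 and 556, 209 and 220, and 279 and 538 bp over all genes.

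In the 2 long lists the genes that were called elsewhere had longer promoter intervals. In germ-free replicate 2 the median summed length was 349 bp in the 17 chromatin genes with a promoter interval in none of the 4 shorter lists, 594.5 bp in the 14 genes in 1 of these lists, 1672 bp in the 7 genes in 2, 1292.5 bp in the 2 genes in 3 and 1683 bp in the 5 genes in all 4. Over all genes it was 373, 641.5, 888, 1151.5 and 1540 bp for the same numbers of lists. In conventional replicate 2 the medians were 478, 899.5, 1271, 1363 and 2052 bp in the chromatin genes and 367, 646, 884, 1131 and 1509 bp over all genes. The 7 genes in 2 of the shorter lists were those in all 4 germ-free and conventional libraries and neither E. coli library. In both lists the genes in none of the shorter lists had the lowest median and those in all 4 the highest, among the chromatin genes as among all genes, and single lengths overlapped between neighbouring classes.

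**Figure D4:**
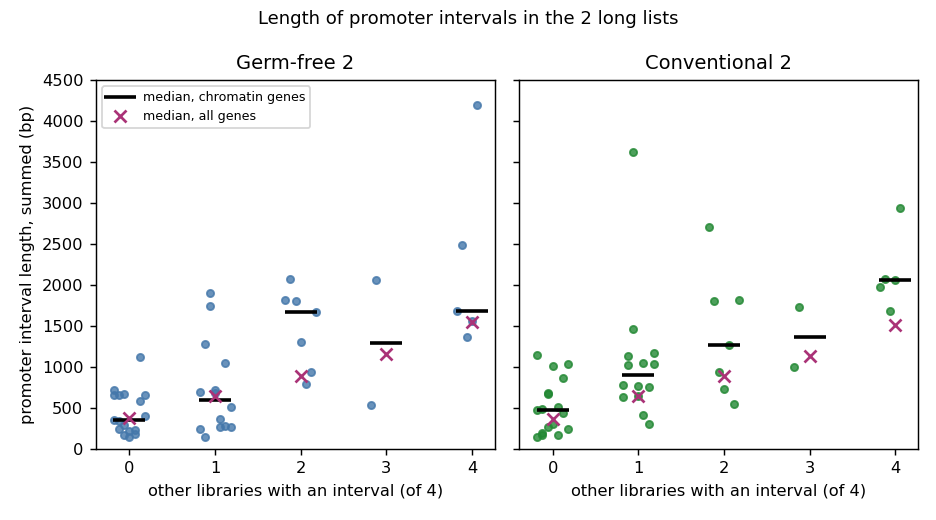
Summed length of promoter H3K9ac intervals in bp (vertical axis) of each chromatin gene in germ-free replicate 2 and conventional replicate 2, by the number of the other 4 libraries in which the gene has a promoter interval (horizontal axis). Black bars are medians of the chromatin genes and crosses medians of all genes. The 5 genes called in all 4 others have medians of 1683 and 2052 bp, against 349 and 478 bp in the genes called in none.

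Several of these genes carried called intervals outside the promoter window, 15 and 56 in germ-free mice, 6 and 4 in mice with E. coli and 11 and 49 in conventional mice. Kdm6b, an inducible lysine 27 demethylase (chromosome 11, listed start site 69413675, minus strand), had 18 in 4 libraries although its promoter was called in only 1. Of these, 10 lay in introns, with midpoints 1645 to 4680 bp downstream of the start site, and 8 lay upstream, nearly all listed together with Tmem88. The intronic block was called at 69410313 to 69410761 in germ-free replicate 1 (fold 7.50), 69409270 to 69411074 in germ-free replicate 2 (8.87), 69410609 to 69411010 in conventional replicate 1 (7.08) and 69410321 to 69411213 in conventional replicate 2 (8.69). These 4 intervals overlapped, and neither E. coli list had an interval tied to the gene.

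At Setd1b and Arid2 the E. coli lists did hold intervals, upstream of the promoter window. Setd1b (chromosome 5, start site 123142193, plus strand) had 20 such intervals in 5 libraries, nearly all listed together with Rhof. A block with midpoints at -3475 to -3183 bp was called at 123138520 to 123139068 in germ-free replicate 1 (6.93), 123137054 to 123140966 in germ-free replicate 2 (12.7), 123138453 to 123138983 in E. coli replicate 2 (6.41), 123138340 to 123139545 in conventional replicate 1 (8.49) and 123138362 to 123139295 in conventional replicate 2 (13.8). Arid2 had 11 intervals in 5 libraries, 10 of them upstream and listed together with E330033B04Rik. In E. coli replicate 2 these ran from 96284804 to 96285098 (5.70) and from 96285191 to 96285419 (4.28). Arid1b had intervals just beyond the window in E. coli replicate 1, from 4993774 to 4993919 (4.73) and from 4996178 to 4996323 (5.33), and no interval tied to it in E. coli replicate 2. With a window of 2500 bp on either side it was called in 5 libraries, E. coli replicate 1 among them. With that window 8 and 8 of the 52 genes were called in the E. coli libraries, against 989 and 443 of all 9700 genes. Setd8 had 9 intervals in 4 libraries, with midpoints 6398 to 14184 bp downstream of its start site, and none at its promoter.

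**Figure D5:**
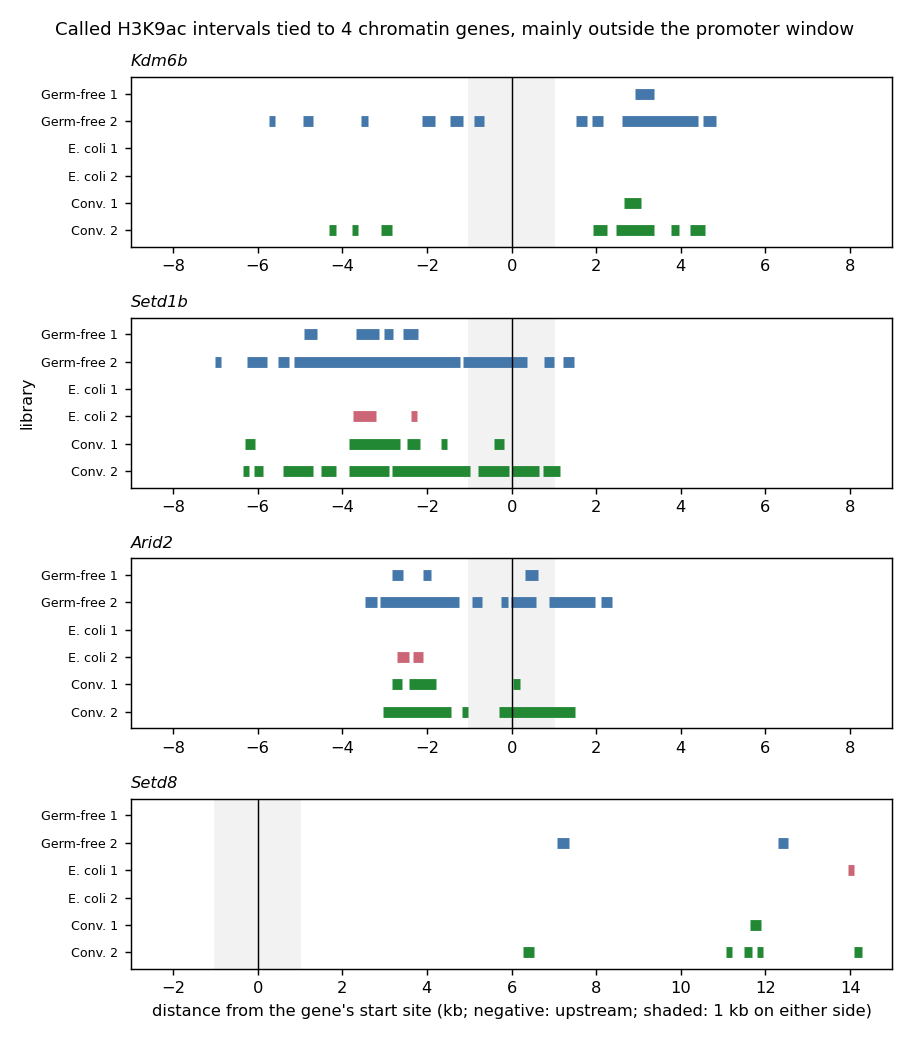
Called H3K9ac intervals (bars) tied to Kdm6b, Setd1b, Arid2 and Setd8, by distance from the start site in kb (horizontal axis, negative is upstream). Rows are libraries, and the shaded band is 1 kb on either side. Kdm6b has an intronic block in all libraries but the E. coli ones, and E. coli replicate 2 has intervals upstream of Setd1b and Arid2 but none inside the band.

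Genes of the same pathways with other symbols were read from 2 lists drawn up by function. Unlike the 52 genes, their members did not have to be named in a peak list. Of 40 other histone methylation genes, 32 of them named in a list, 9 and 23 had a promoter interval in germ-free mice, 3 and 4 in mice with E. coli and 7 and 27 in conventional mice. In all 6 were Jarid2, a subunit of the Polycomb methyltransferase complex, Ehmt2, a lysine 9 methyltransferase, and Suv420h1, which di- and trimethylates lysine 20 of histone H4. Of the 9 called in both germ-free libraries, 5 (55.6%) were in neither E. coli library, against 65.6% of all genes. Of 52 other remodelling genes, 41 of them named in a list, 12 and 35, 8 and 1, and 13 and 32 had a promoter interval. Baz2b, a bromodomain partner of ISWI, was the gene in all 6, and 7 of the 12 in both germ-free libraries (58.3%, against the same 65.6%) were in neither E. coli library.

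The edge of the set is set by names. RefSeq has 63 genes with these prefixes, Kdm1a not counted, and 8 of them are in no list: Arid3c, Ino80e, Setd4, Setd6, Smarca1, Smarcal1, Smarcb1 and Smarcd3. A further 3 stand in the lists under older names and so fell outside the rule: Jhdm1d (Kdm7a), called in 5 libraries, Suv420h1 (Kmt5b), in 6, and Suv420h2 (Kmt5c), in 2. Kdm1a was called in germ-free replicate 2 and conventional replicate 2. Just inside the rule, Arid5a had a single interval, outside its promoter and at 3.80-fold the weakest that its list holds, and Arid3b had 2. Of the 49 genes with a promoter interval, 6 shared one with another protein-coding gene and 7 only with a noncoding or unmatched gene, and at these the mark cannot be assigned to one gene.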

How the data were processed

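Each library had its own deposited MACS2 peak list, so the authors called peaks per sample; the build was mm10 and the tools were MACS2 2.1.1.20160309 and Bowtie 1.2.0, per the submitters' processing notes, and whether an input control entered is not given in the sources used here. Per the file headers, the deposited lists give the pileup at the summit (a coverage signal), the -log10 p-value, the fold enrichment (a ratio of pileup to background), the -log10 q-value, the interval length, a region class and the gene. The list of germ-free replicate 2 has 14 header names over 13 cells, so its columns were identified from the values, and it holds no summit and no pileup. Lines of the same interval with different summits were taken as 1 interval, and mitochondrial intervals were left out of promoter counts. Of 10621 listed names, 10567 matched RefSeq (GRCm38.p6). Start sites were the listed transcript starts or, on the minus strand, ends. In rows naming several genes the start may belong to another of them.

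A percentile is the rank of an interval's -log10 p-value within its own list of nuclear intervals. Group shares were compared by exact two-sided permutation of libraries, and all other comparisons are counts read against all 9700 genes. The count of genes in both libraries of one group and neither of another was tried on simulated calls. The permutation test was tried on fixed numbers. Alternatives were the promoter window, the authors' promoter class, fold, -log10 q-value and overlap minimums, lists of equal length, intervals of 1 protein-coding gene, division by the share of all genes, the replicate block and leaving out each library. Genes with values were those called in all 6 libraries, those in both libraries of one group and neither of another (up to 15 per comparison by mean percentile), and the other genes of each class. The genes and lists were chosen with earlier results of these data known. Tools were SciPy 1.17.1, NumPy 2.4.6, pandas 2.3.3 and matplotlib 3.10.9 under Python 3.11.15.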

Additional observations from a re-analysis of the deposited data

How the results depend on the processing

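The mean share of chromatin genes with a promoter interval kept the direction E. coli below germ-free under every window, fold, q-value, overlap and sharing setting and without any single library (differences of -74.0 to -31.7 points with 1 library left out). With lists of equal length the difference was 2.88 points, a sign that may depend on how tied p-values were cut. As a ratio to the share of all genes it reversed (0.666). Conventional minus E. coli ranged from 22.1 to 74.0 points with 1 library left out, fell to 5.77 with equal lists and reversed as that ratio (-0.776). Conventional minus germ-free reversed with a 500 bp window (6.73), a -log10 q of 5 or more (5.77) and equal lists (8.65), and ranged from -30.8 to 21.2 with 1 library left out. The genes called in all 6 libraries numbered 3 at that q and 2 with equal lists, and 5 to 7 with 1 library left out. Those called in both germ-free libraries but in no E. coli library numbered 10 of 15 with the 500 bp window (68.4% of all genes). At that q they numbered 5 of 9 (79.1%) and with equal lists 0 of 2 (33.5%). With 1 library left out they numbered 16 to 37. For conventional against E. coli they numbered 6 of 10 at that q (79.1% of all genes), 1 of 4 with equal lists (36.3%) and 11 to 37 with 1 library left out. Germ-free against conventional gave 0 to 9 with 1 library left out. The reverse gave 1 of 10 at that q (9.94% of all genes) and 0 to 4 with 1 library left out. Fewer intervals enter at a stricter q or in equal lists, and all values from equal lists may depend on how tied p-values were cut. Other causes were not tested.

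The labels do not say whether replicate numbers pair libraries across groups. Over 8097 genes the deviations of same-numbered libraries correlated weakly, at 0.0796, 0.0309 and 0.0948. With 2 libraries a group such values cannot settle whether a pairing exists. With the replicate block the differences stayed at -52.9, -4.81 and 48.1 points, with exact permutation p = 0.5, 1 and 0.5, where 0.5 is the smallest possible. The number of libraries per gene was the same for 52 of the 52 genes with the authors' promoter class. That class gave the same counts as the 1 kb window in every library, over all genes too, so it was no separate check. The number was the same for 44 genes with a 2500 bp window, 33 with 500 bp, 14 at that q and 5 with equal lists.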
